A study of Mus musculus with 18 samples.

Results

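Sterol and fatty acid synthesis genes were examined in RNA-seq of cultured mouse bone marrow cells labelled BMMC, which differed in the gene Sirt6. The 32 genes were chosen by name, as enzymes and regulators of both pathways, with earlier results of these data known. All 32 were found by symbol among the 45777 genes of the deposited table. Each of them passed the filter on low counts, which kept 17159 genes. By role, 8 act in the mevalonate and isoprenoid steps, 11 in the squalene and sterol steps, 5 in sterol sensing, 3 in sterol transport and 5 in fatty acid synthesis.

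Cholesterol is built from acetyl-CoA through mevalonate, isoprenoids, squalene and lanosterol, and fatty acids from the same acetyl-CoA through malonyl-CoA. When membrane sterol is low, the escort protein SCAP carries SREBP transcription factors from the endoplasmic reticulum to the Golgi, where they are cut and freed to switch on most genes of both pathways. INSIG proteins hold SCAP back when sterol is plentiful, and Insig1 is itself an SREBP target. Mast cells, which bone marrow progenitors give rise to in culture, carry the IgE receptor FcεRI in a cholesterol-rich plasma membrane.

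The study compared wild-type (WT) cells, in which both Sirt6 alleles are flanked by loxP sites, with knockout (KO) cells, which carry those alleles together with a Cre recombinase driven from the lysozyme M promoter (LysM-Cre), a promoter active in myeloid cells. SIRT6 is a nuclear NAD-dependent deacetylase. The stated aim was to find transcriptional changes that follow Sirt6 deficiency. Each genotype was sequenced at 0, 20 and 60, numbers for which no unit is stated. LPS, a bacterial lipopolysaccharide that activates cells through TLR4, is named for the libraries at 20 and 60, and no agent is named at 0. The series title speaks of FcεRI signalling, so which stimulus was given was not settled by the labels. Each of the 6 groups (WT 0, WT 20, WT 60, KO 0, KO 20 and KO 60) held 3 libraries, numbered 414, 4120 and 6110, which makes 18. The labels do not say whether libraries came from separate mice, or whether a number marks a mouse, a litter or a day, so the p-values here reflect how much these libraries vary, which may be technical. Within a group, no pair of libraries differed as little as sampling noise would allow.

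The 18 libraries held between 20026054 and 42265435 counts. Counts from mitochondrial DNA took 4.07% to 41.7% of a library, and 5 libraries were over 20%. A list of 9 mast cell markers summed to between 15440 and 45840 CPM (counts scaled to library size with edgeR's TMM factors) in every library. None of the 9 was at 0 in any group, but Mcpt4 held only 0.336 to 2.69 CPM a library. Cpa3 (5669 to 20660 CPM) and Cma1 (3863 to 19310 CPM) reached the highest values, and Tpsb2 ran from 184.5 to 7204 CPM. Sirt6 itself stood at 9.73 to 16.9 CPM in WT and 10.45 to 21.1 CPM in KO, so the count over the whole gene did not separate the genotypes and does not check the deletion.

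The promoters of the 4 genes that passed the test below are shown first, because SREBP and the factors that work beside it are known to bind short elements in this window. Each runs from 250 bases before to 50 after the gene's start, 5′ to 3′ on the gene's strand, and is credited to RefSeq on GRCm38.p6. Capitals mark every match, on either strand, to the sterol regulatory element TCACNCCAC, the E-box CACGTG, the CCAAT box (CCAAT, or ATTGG on the other strand) and the GC box (GGGCGG, or CCGCCC on the other strand). Msmo1, chr8:64733529-64733828 on the minus strand, encodes methylsterol monooxygenase, which starts removing the methyl groups at carbon 4 of the sterol.
Msmo1: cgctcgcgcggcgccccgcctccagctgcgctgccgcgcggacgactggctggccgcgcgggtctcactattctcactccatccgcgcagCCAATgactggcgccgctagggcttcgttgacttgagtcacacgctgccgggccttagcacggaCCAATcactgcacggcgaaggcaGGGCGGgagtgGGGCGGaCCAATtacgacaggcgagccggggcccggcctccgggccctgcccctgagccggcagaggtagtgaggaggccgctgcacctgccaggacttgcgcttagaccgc
Hmgcs1, chr13:119690101-119690400 on the plus strand, encodes cytosolic HMG-CoA synthase, an early mevalonate step.
Hmgcs1: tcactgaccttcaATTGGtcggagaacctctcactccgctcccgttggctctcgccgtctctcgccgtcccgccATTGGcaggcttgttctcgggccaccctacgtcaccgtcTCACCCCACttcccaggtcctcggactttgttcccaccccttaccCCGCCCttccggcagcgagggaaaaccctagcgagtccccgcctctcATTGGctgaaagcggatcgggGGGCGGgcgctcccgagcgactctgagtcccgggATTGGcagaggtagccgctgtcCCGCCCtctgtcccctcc
Insig1, chr5:28071162-28071461 on the plus strand, encodes one of the INSIG proteins.
Insig1: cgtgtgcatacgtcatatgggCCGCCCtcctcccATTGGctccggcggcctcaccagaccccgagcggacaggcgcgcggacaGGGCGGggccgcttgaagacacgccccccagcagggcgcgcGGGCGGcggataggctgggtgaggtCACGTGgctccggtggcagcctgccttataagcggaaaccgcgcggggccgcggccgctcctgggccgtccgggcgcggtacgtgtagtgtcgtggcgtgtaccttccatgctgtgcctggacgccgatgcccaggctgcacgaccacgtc
Cyp51, chr5:4104648-4104947 on the minus strand, encodes lanosterol 14-alpha-demethylase.
Cyp51: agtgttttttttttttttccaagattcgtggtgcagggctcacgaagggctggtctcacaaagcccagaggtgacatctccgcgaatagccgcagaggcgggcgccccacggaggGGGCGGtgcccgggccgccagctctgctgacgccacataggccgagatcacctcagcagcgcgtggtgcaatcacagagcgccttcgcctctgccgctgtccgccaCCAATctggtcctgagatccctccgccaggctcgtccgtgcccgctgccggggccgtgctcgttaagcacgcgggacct
The Hmgcs1 window held 1 match to the sterol regulatory element, TCACCCCAC, starting 137 bases before the start site, with 4 CCAAT boxes and 3 GC boxes. The Insig1 window held 1 E-box, 101 bases before the start, 1 CCAAT box and 3 GC boxes. The Msmo1 window held 3 CCAAT boxes and 2 GC boxes, and the Cyp51 window held 1 of each.

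Promoters were matched for 25 of the 32 genes, those not matched being Fdps, Scd2, Scd1, Fdft1, Abcg1, Sqle and Stard4. The sterol regulatory element letters were found in 1 of the 25, against 1.24% of all 32851 promoters of the same length in the RefSeq table. The E-box was in 6 of 25 (24.0%), namely Hsd17b7, Sc5d, Dhcr7, Insig1, Scap and Abca1, against 7.15% of all promoters. The CCAAT box was in 21 of 25 (84.0%) against 37.4%, and the GC box in 21 of 25 (84.0%) against 35.7%. Among the 12121 tested genes with an entry, which are nearer in kind to the 25, the shares were 1.37% for the sterol regulatory element, 10.9% for the E-box, 42.7% for the CCAAT box and 62.0% for the GC box. These letters describe the windows only, and a window without a match says nothing about the factor.

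Per length, in the deposited TPM (transcript abundance scaled for length and depth), the master regulator genes were among the most abundant of the 32. Over the 18 libraries, Srebf2, which encodes the SREBP that mainly serves the cholesterol genes, had the highest mean at 74.4 TPM, and Srebf1, which mainly serves fatty acid genes, stood at 40.3 TPM. Ebp, a sterol isomerase, lay between them at 42.01 TPM, and the desaturase Scd2 followed at 30.2 TPM. Its paralog Scd1 was at 2.19 TPM, and the lowest were Hsd17b7 at 0.596 TPM and the efflux transporter Abca1 at 0.213 TPM. Genes of the pathway therefore spanned a wide range of levels, with the regulators above most of the enzymes.

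Between 0 and 60, a run of sterol synthesis genes had higher counts at 60 in both genotypes, and 4 of them passed the test in KO. In KO at 60 against KO at 0, edgeR's quasi-likelihood test with Benjamini-Hochberg adjustment over all 17159 genes called 4 of 32 at an adjusted p under 0.05, all higher at 60. Of all genes tested, 2.54% were called in that comparison, and 1.99% of all were called higher. The 4 were Msmo1, Hmgcs1, Cyp51 and Insig1, which are 2 sterol enzymes, a mevalonate enzyme and a sterol sensor. In WT at 60 against WT at 0 none of the 32 was called, where 0.221% of all genes were, and 8 stood higher and 1 lower at an unadjusted p under 0.05, which 7.94% of all genes passed.

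Msmo1 (gene 66234, chr8:64718123-64733578 of GRCm38) had 16.2, 8.11 and 14.8 CPM in the KO libraries 414, 4120 and 6110 at 0, and 47.1, 33.7 and 52.8 CPM at 60. Every KO library at 60 was above every KO library at 0. It rose 3.42-fold, by 1.77 on the log2 scale (SE 0.317), with an edgeR adjusted p of 0.00613. In WT the libraries held 5.87, 8.80 and 12.4 CPM at 0 and 19.1, 22.9 and 37.1 CPM at 60. These did not overlap either, and the log2 difference of 1.55 (SE 0.317) had an edgeR adjusted p of 0.056. Of the 4 genes, Msmo1 was the one whose call in KO held when any single library of the compared groups was left out.

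Hmgcs1 (gene 208715, chr13:119690351-119708260) had 15.3, 10.2 and 24.5 CPM in the KO libraries 414, 4120 and 6110 at 0, and 46.6, 37.4 and 76.4 CPM at 60. The groups did not overlap, and library 6110 was the highest at both levels. The gene rose 3.21-fold in KO, by 1.68 on the log2 scale (SE 0.375), with an edgeR adjusted p of 0.0236. In WT it had 13.6, 10.95 and 22.1 CPM at 0 and 35.1, 22.9 and 56.2 CPM at 60, again without overlap, for a log2 difference of 1.29 (SE 0.373, edgeR adjusted p 0.238). At 20 it stood at 14.6 to 19.7 CPM over both genotypes, within the range of the libraries at 0.

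Cyp51 (gene 13121, chr5:4080674-4104697) had 9.65, 8.17 and 14.4 CPM in KO 0, in the same order of libraries, and 31.1, 34.8 and 65.3 CPM in KO 60. All 3 libraries at 60 were above all 3 at 0. It rose 4.08-fold, by 2.03 on the log2 scale (SE 0.481), the largest change among the 32 in that comparison, with an edgeR adjusted p of 0.0328. In WT it had 3.22, 6.83 and 11.9 CPM at 0 and 8.48, 15.6 and 34.0 CPM at 60. The WT groups overlapped, each number being higher at 60 than at 0, and the log2 difference was 1.40 (SE 0.477, edgeR adjusted p 0.356).

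Insig1 (gene 231070, chr5:28071412-28078662) had 13.8, 15.6 and 17.2 CPM in the KO libraries at 0, 18.5, 23.1 and 19.0 CPM at 20, and 26.1, 28.8 and 29.8 CPM at 60. The 3 KO groups did not overlap. The gene rose 1.82-fold between 0 and 60, by 0.86 on the log2 scale (SE 0.205), with an edgeR adjusted p of 0.0328. In WT it had 10.7, 11.9 and 11.9 CPM at 0, 14.4, 16.9 and 18.2 CPM at 20, and 10.9, 15.1 and 21.1 CPM at 60. WT 60 overlapped WT 0 through library 414, and the log2 difference of 0.45 was not called. Insig1 overlaps the long non-coding RNA gene Gm35223, and whether counting used strand is not given, so their reads may not be separable. Of the 32 genes, 12 overlap another annotated gene, among them Fdft1, Fdps, Scd2, Acly, Srebf1 and Acaca, and the same limit may apply to them.

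**Figure D1:**
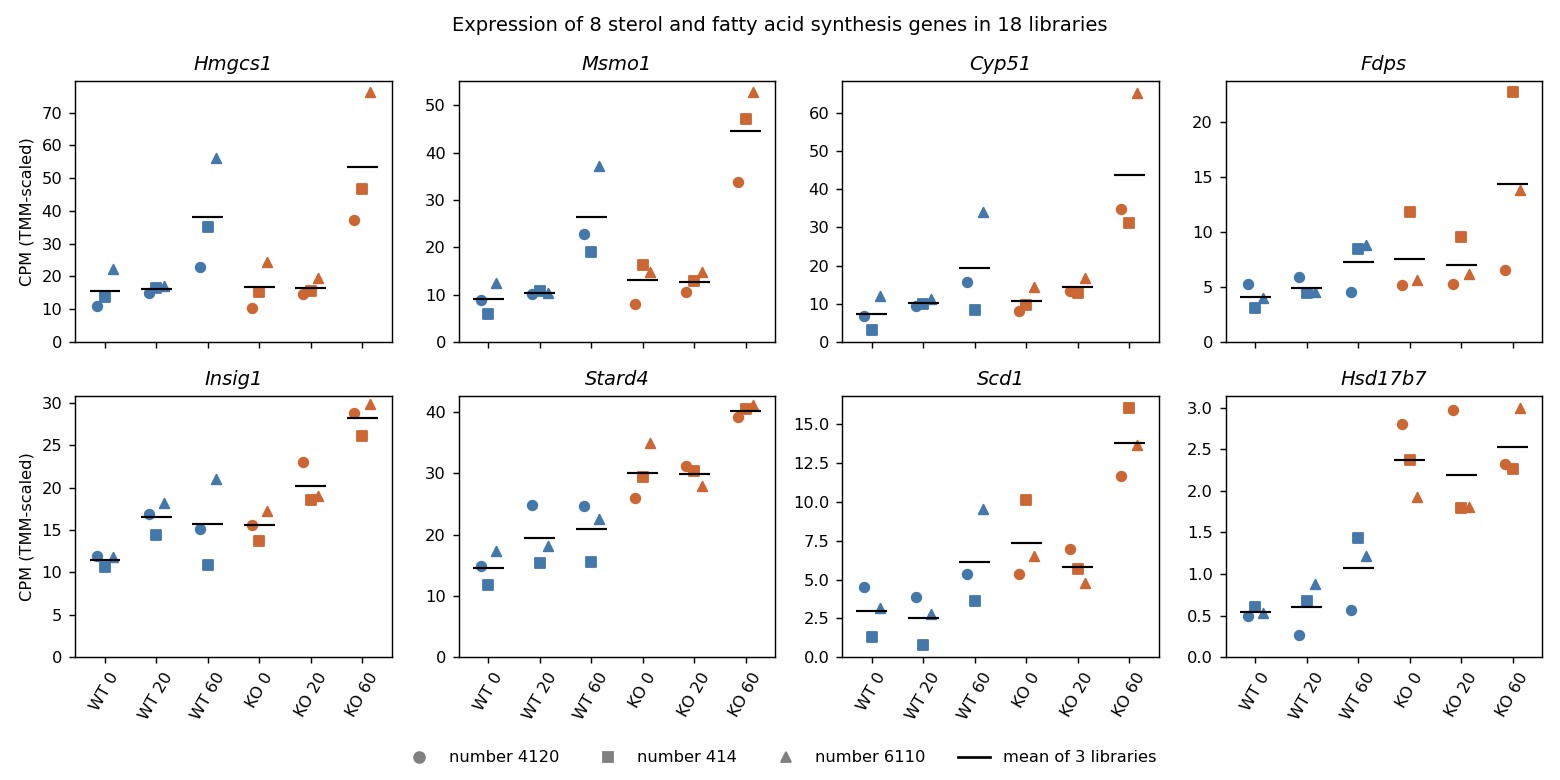
CPM in each of the 18 libraries for 8 genes, by genotype and level. Points are libraries, shaped by number, lines are means of 3, and the KO libraries at 60 lie above those at 0 for Msmo1, Hmgcs1, Cyp51 and Insig1.

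The other genes of the list moved less or with more spread at 60. The KO libraries at 60 were all above those at 0 for 9 of 32 genes, where 9.18% of all genes were so. They were the 4 above and 5 without a call: Idi1, which encodes isopentenyl diphosphate isomerase, the squalene epoxidase gene Sqle, the sterol carrier gene Stard4, the desaturase gene Scd1 and the citrate lyase gene Acly. Idi1 had a log2 difference of 1.49 in KO (edgeR adjusted p 0.0682) and 1.46 in WT (edgeR adjusted p 0.223). Acly had 0.85 in KO (edgeR adjusted p 0.0871) and 0.67 in WT (edgeR adjusted p 0.41). Acat2, an acetoacetyl-CoA thiolase, and Abcg1, a sterol efflux transporter, had all 3 KO libraries at 60 below those at 0, where 10.3% of all genes did, with log2 differences of -0.38 and -0.44. Of the master regulators, Srebf1 stood at 0.03 and Srebf2 at 0.39 on the log2 scale in KO, and neither was called. The Srebf2 libraries spread widely, from 141.7 to 397.2 CPM in KO 0 and from 150.2 to 521.5 CPM in KO 60. Over the 32 genes, 23 were positive in KO (50.1% of all genes) with a median of 0.19, beside 0.00 over all genes. In WT 21 were positive (47.8% of all genes) with a median of 0.22, beside -0.02.

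**Figure D2:**
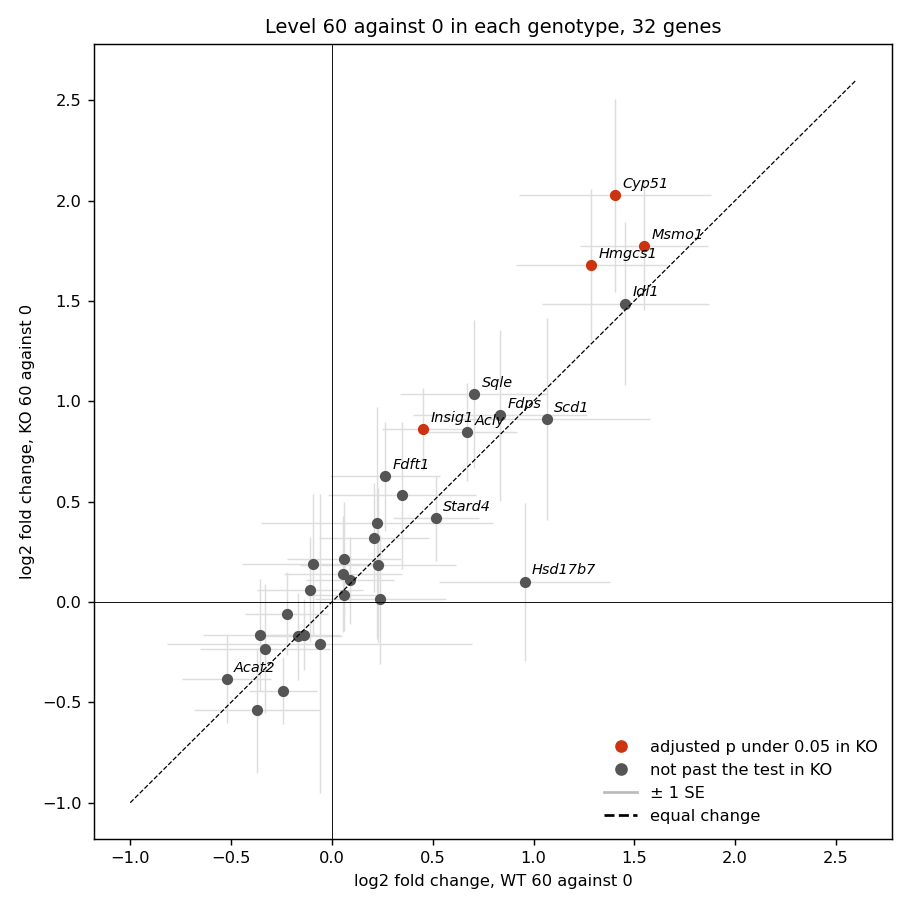
Log2 fold change of each of the 32 genes between 0 and 60, WT on one axis and KO on the other, with standard errors. Msmo1, Hmgcs1, Cyp51 and Idi1 lie farthest out on both axes, with values between 1.29 and 2.03.

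The count of 4 in KO depended on single libraries and on the fit. It was 1 without library 4120 of KO 0 (1% of all genes), without library 414 of KO 0 (0.971%) or without library 6110 of KO 60 (1.37%). It was 2 without library 4120 of KO 60 (1.28%). With the replicate number as a block, whose residuals moved together across KO 0 and KO 60, 6 of 32 were called, the added ones being Idi1 and the squalene synthase gene Fdft1, as against 1094 of all genes (6.38%). Without the 5 libraries over 20% mitochondrial counts, a choice made after seeing the data, none was called, beside 0.605% of all genes. There Msmo1 stood at 1.91 (edgeR adjusted p 0.0766) and Cyp51 at 2.15 (edgeR adjusted p 0.147). Hmgcs1 stood at 1.71 (edgeR adjusted p 0.194) and Insig1 at 0.83 (edgeR adjusted p 0.163). On library size alone the median of all genes moved to -0.22, and the 32 genes had 14 positive differences with a median of -0.05. Of the 32, Msmo1 alone was called there, beside 0.95% of all genes. On log2(TPM + 1) none was called, beside 0.507% of all genes, and again 14 were positive, with a median of -0.07. Mitochondrial shares were 13.7% ± 11.9 in KO 0 and 14.4% ± 17.4 in KO 60, and 22.6% ± 14.55 in WT 0 and 22.1% ± 17.4 in WT 60 (SD, n = 3).

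At 20, no gene of the list passed the test against 0. In WT, 22 of 32 differences were positive (47.2% of all genes) with a median of 0.18, beside -0.02 over all genes, and that median was -0.01 without library 6110 of WT 20. In KO, 16 were positive (45.8% of all genes) with a median of 0.01, beside -0.03. Of the 32, none was called in WT (0.6% of all genes were) and none in KO (0.449% of all genes were) by edgeR at an adjusted p under 0.05, and at an unadjusted p under 0.05 the counts were 2 and 0, beside 5.77% and 3.23% of all genes. Insig1 was the gene whose libraries at 20 were all above those at 0 in both genotypes, which 5.46% of all genes were in WT and 4.2% in KO. Its log2 differences were 0.52 in WT (SE 0.205, edgeR adjusted p 0.682) and 0.38 in KO (SE 0.204, edgeR adjusted p 1). The largest difference in WT was that of Idi1, named after its values were seen, at 0.76 (SE 0.414, edgeR adjusted p 0.918), with 0.906, 2.09 and 1.66 CPM in libraries 414, 4120 and 6110 at 0 and 2.13, 3.68 and 2.01 CPM at 20, higher in 3 of 3 numbers. Cyp51 stood at 0.48 in WT (SE 0.472) and 0.41 in KO (SE 0.467). Fasn, the fatty acid synthase gene, was at 0.41 in WT (SE 0.218, edgeR adjusted p 0.909), and Scd1 at -0.33 in KO (SE 0.502).

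Whether the response differed between genotypes was tested as an interaction, and no gene of the list and 0% of all genes passed by edgeR, at 20 or at 60. At an unadjusted p under 0.05, none of the 32 passed at either level, where 0.396% of all genes did at 20 and 1.1% at 60. Among genes with at least 5 CPM in a compared group, Cyp51 had the largest value at 60, 0.62 (SE 0.661), followed by Insig1 at 0.41 (SE 0.289) and Hmgcs1 at 0.39 (SE 0.518), each with an edgeR adjusted p of 1. Below that level, Hsd17b7 stood at -0.86 (SE 0.577, edgeR adjusted p 1). At 20, among genes with at least 5 CPM, Stard4 stood at -0.42 (SE 0.300) and the farnesyl diphosphate synthase gene Fdps at -0.38 (SE 0.605). The phosphomevalonate kinase gene Pmvk stood at 0.35 (SE 0.452). Below 5 CPM, Idi1 had the largest value of the 32 at 20, -0.74 (SE 0.576). The 4 calls in KO and none in WT are therefore not a measured difference between the genotypes' responses.

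Between the genotypes, most of the 32 genes had higher values in KO than in WT, by small amounts, and none passed the test. EdgeR called 0 of 32 at 0, at 20, at 60 and over all levels, where 0.274%, 0.21%, 0.268% and 0.142% of all genes were called. At an unadjusted p under 0.05 the counts were 7, 6, 13 and 8, all higher in KO, where 12.1%, 7.79%, 10.7% and 11.6% of all genes passed in either direction. The log2 difference was positive for 28 of 32 at 0, 29 at 20 and 30 at 60, where 50.5%, 48.3% and 52% of all genes were positive. The medians over the list were 0.38, 0.28 and 0.52, beside 0.01, -0.02 and 0.02 over all genes. The difference was positive at all 3 levels for 26 of 32 genes, as for 33.6% of all genes, and the libraries of the levels share their cultures' numbers. Because the list was chosen with earlier results of these data known, its shares beside those of all genes describe it and are not a test. Ggps1, which makes the geranylgeranyl diphosphate used in protein prenylation, was the gene with a negative difference at all 3 levels, and Abca1, Acat2, Sc5d, Scap and Tm7sf2 had mixed signs.

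**Figure D3:**
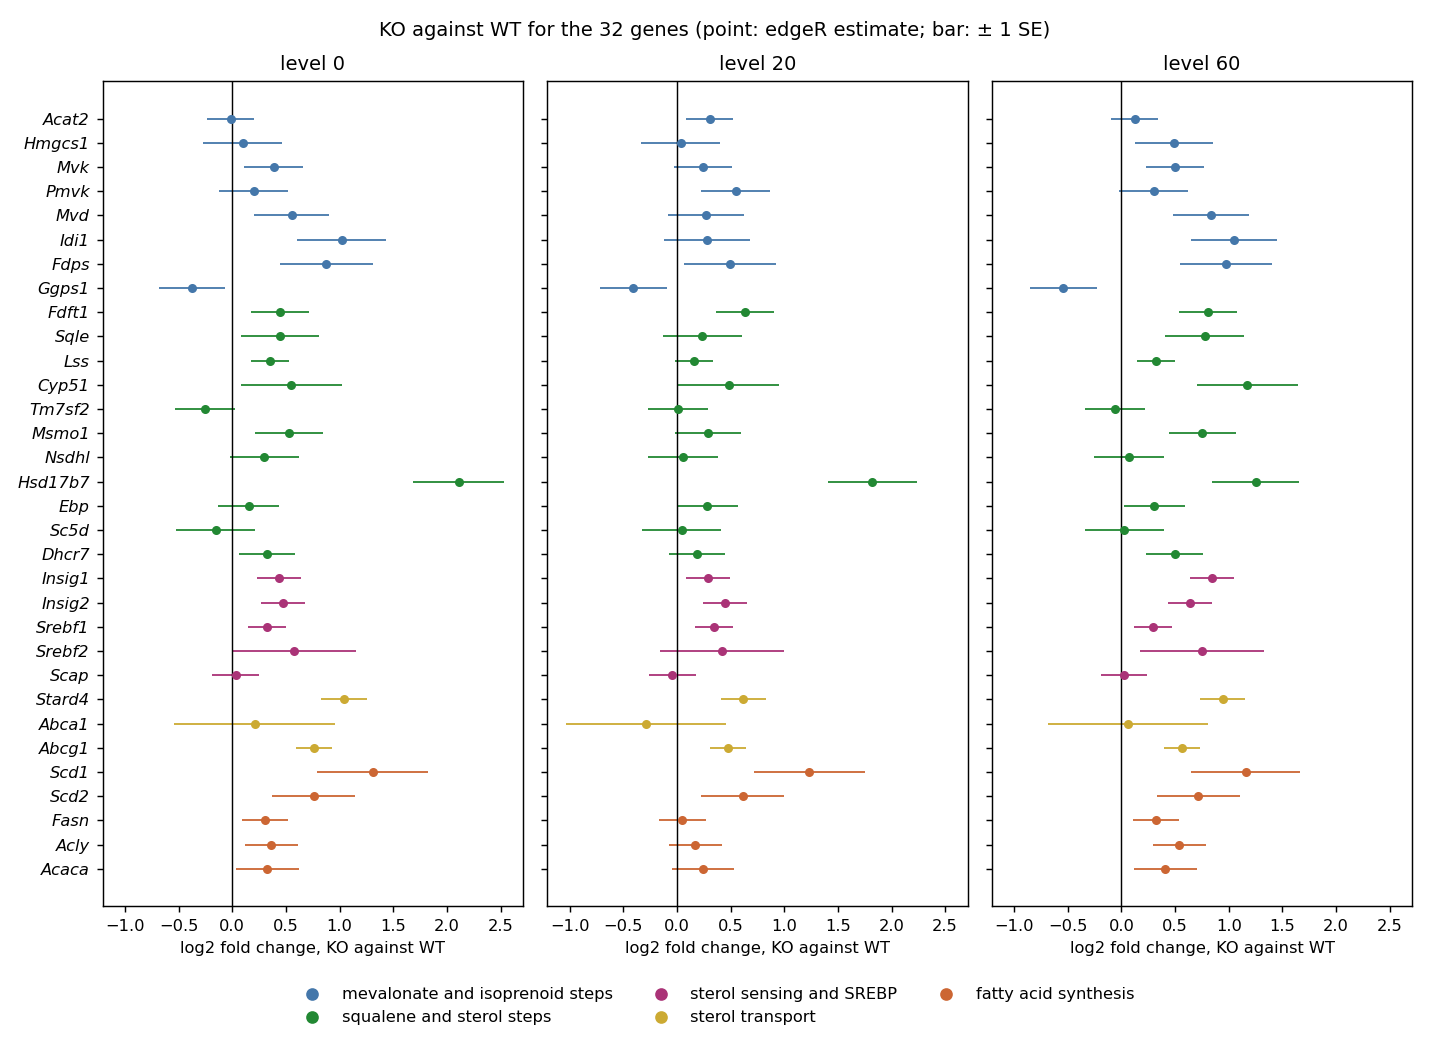
Log2 fold change of KO against WT for each of the 32 genes at 0, 20 and 60, with standard errors, ordered by role. Most points lie to the right of 0, none passed the edgeR test, and Hsd17b7 has the largest values, 2.11, 1.82 and 1.25.

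In sterol transport, Stard4, whose protein carries cholesterol between membranes, had 11.7, 14.9 and 17.2 CPM in the WT libraries 414, 4120 and 6110 at 0, and 29.3, 26.0 and 35.0 CPM in KO. At 20 it had 15.3, 24.9 and 18.1 CPM in WT and 30.3, 31.1 and 27.9 CPM in KO, and at 60 it had 15.5, 24.7 and 22.5 CPM in WT and 40.4, 39.2 and 41.1 CPM in KO. Every KO library was above every WT library at each level. The log2 differences were 1.04 at 0 (SE 0.214, edgeR adjusted p 0.0592), 0.62 at 20 (SE 0.212, edgeR adjusted p 0.52) and 0.94 at 60 (SE 0.213, edgeR adjusted p 0.0919), and 0.84 over all levels (SE 0.199, edgeR adjusted p 0.225). Abcg1 likewise had all KO libraries above all WT libraries at each level, with log2 differences of 0.77, 0.48 and 0.57, and Abca1 stood at 0.21, -0.29 and 0.06.

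In fatty acid synthesis, Scd1, a stearoyl-CoA desaturase, had 1.27, 4.49 and 3.16 CPM in the WT libraries 414, 4120 and 6110 at 0, and 10.1, 5.34 and 6.54 CPM in KO. At 20 it had 0.793, 3.91 and 2.77 CPM in WT and 5.69, 6.99 and 4.81 CPM in KO, and at 60 it had 3.60, 5.32 and 9.53 CPM in WT and 16.0, 11.7 and 13.7 CPM in KO. KO was above WT in every library at each level, and library 414 held the lowest WT value each time. The log2 differences were 1.31 (SE 0.516), 1.23 (SE 0.516) and 1.16 (SE 0.506), with edgeR adjusted p-values of 0.351, 0.611 and 0.428. Its paralog Scd2 stood at 0.76, 0.61 and 0.71, and how reads shared by both genes were counted is not given. Fasn, Acly and Acaca, the acetyl-CoA carboxylase gene, lay between 0.05 and 0.54 at the 3 levels.

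Among the sterol enzymes, Hsd17b7, a ketosteroid reductase of the pathway, had the largest difference, and it was singled out after its values were seen, being under the 5 CPM set for naming. It had 0.604, 0.492 and 0.532 CPM in WT 0 and 2.37, 2.80 and 1.93 CPM in KO 0, from 43 counts in WT and 239 in KO. The groups did not overlap at any level, and its log2 differences were 2.11 at 0 (SE 0.425, edgeR adjusted p 0.0526), 1.82 at 20 (edgeR adjusted p 0.119) and 1.25 at 60 (edgeR adjusted p 0.301). Cyp51 stood at 1.17 at 60 (SE 0.469, edgeR adjusted p 0.387) and 0.83 over all levels (SE 0.417, edgeR adjusted p 0.499). Its KO and WT libraries overlapped at 60, with 31.1, 34.8 and 65.3 CPM in KO and 8.48, 15.6 and 34.0 CPM in WT. Fdft1 was at 0.64 at 20 (SE 0.272, edgeR adjusted p 0.613), and it overlaps the protease gene Ctsb, which limits what its counts can say.

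Among the mevalonate enzymes, Fdps had 3.09, 5.23 and 4.01 CPM in the WT libraries 414, 4120 and 6110 at 0 and 11.8, 5.17 and 5.64 CPM in KO. At 20 it had 4.45, 5.88 and 4.51 CPM in WT and 9.51, 5.23 and 6.18 CPM in KO, and at 60 it had 8.48, 4.58 and 8.86 CPM in WT and 22.8, 6.55 and 13.8 CPM in KO. The groups overlapped at each level, and library 414 of KO was the highest each time. Its log2 difference at 0 was 0.88 (SE 0.431, edgeR adjusted p 0.427). Idi1 stood at 1.05 at 60 (SE 0.402, edgeR adjusted p 0.372). At 0 and 20, where it was under the 5 CPM set for naming, Idi1 stood at 1.02 (edgeR adjusted p 0.367) and 0.28 (edgeR adjusted p 0.864). Hmgcs1, called between 0 and 60 in KO, stood at 0.10 at 0 and 0.49 at 60 between genotypes.

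Among the sensors and regulators, Insig1 had KO above WT in every library at each level, with log2 differences of 0.44 at 0, 0.29 at 20 and 0.85 at 60 (SE 0.205 and edgeR adjusted p 0.12 at 60). Insig2, Srebf1 and Srebf2 had values between 0.30 and 0.75 at the 3 levels, and Scap between -0.04 and 0.03. In all, 5 of 32 genes (Abcg1, Hsd17b7, Insig1, Scd1 and Stard4) had every KO library above every WT library at all 3 levels, against 168 of 17159 genes, or 0.979%. Counted per level, 5 of 32 did so at 0 (5.94% of all genes), 8 at 20 (8.35%) and 9 at 60 (7.34%), and none had every KO library below, as 7.14%, 8.95% and 7.86% of all genes did. With the replicate number as a block at 60, where same-numbered residuals moved together, Fdft1, Insig1 and Stard4 were called by edgeR, as were 183 of all genes (1.07%). The same block on counts summed over all levels called 0 of 32, beside 0.12% of all genes. Without library 6110 of WT 60, Insig1 was called at 60, as were 51 of all genes (0.285%).

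Other features of the cultures moved with genotype beside these values. A list of 9 neutrophil and granulocyte precursor markers summed to 7.15 to 26.9 CPM in the KO libraries and 0 to 5.30 CPM in WT, and in WT at 0 the list had 3 markers at 0 in every library. A list of 8 macrophage markers summed to 76.3 to 288.7 CPM in KO and 29.6 to 192.9 CPM in WT, most of it Cd68 at 23.2 to 276.4 CPM. Mitochondrial shares were lower on average in KO, 6.32% ± 1.61 in KO 20 against 17.4% ± 14.3 in WT 20 (SD, n = 3). The part of the marker lists in the result was not tested. Without the 5 libraries over 20% mitochondrial counts, 26 of 32 differences were positive at 0, 26 at 20 and 29 at 60, with medians of 0.38, 0.29 and 0.49. With the log2 mitochondrial share as a covariate, 27, 24 and 27 were positive. In these bulk samples, fewer cells of a type and less RNA per cell cannot be told apart.

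Averaged over the 32 genes, each centred on its mean log2 CPM over the 18 libraries, the KO libraries ranged from -0.12 to 0.24 at 0 and the WT libraries from -0.55 to -0.20. At 20 the ranges were 0.09 to 0.17 in KO and -0.27 to -0.16 in WT, and at 60 they were 0.30 to 0.68 in KO and -0.31 to 0.19 in WT. KO did not overlap WT at any level, and in both genotypes the highest value at 60 was that of number 6110. Compared within numbers, the median difference over the 32 genes at 60 was 0.41 for 4120, 0.62 for 414 and 0.50 for 6110, and at 0 it was 0.19, 0.54 and 0.45. The mean's correlation with the log2 mitochondrial share was -0.46 over the 18 libraries, which share numbers and groups.

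**Figure D4:**
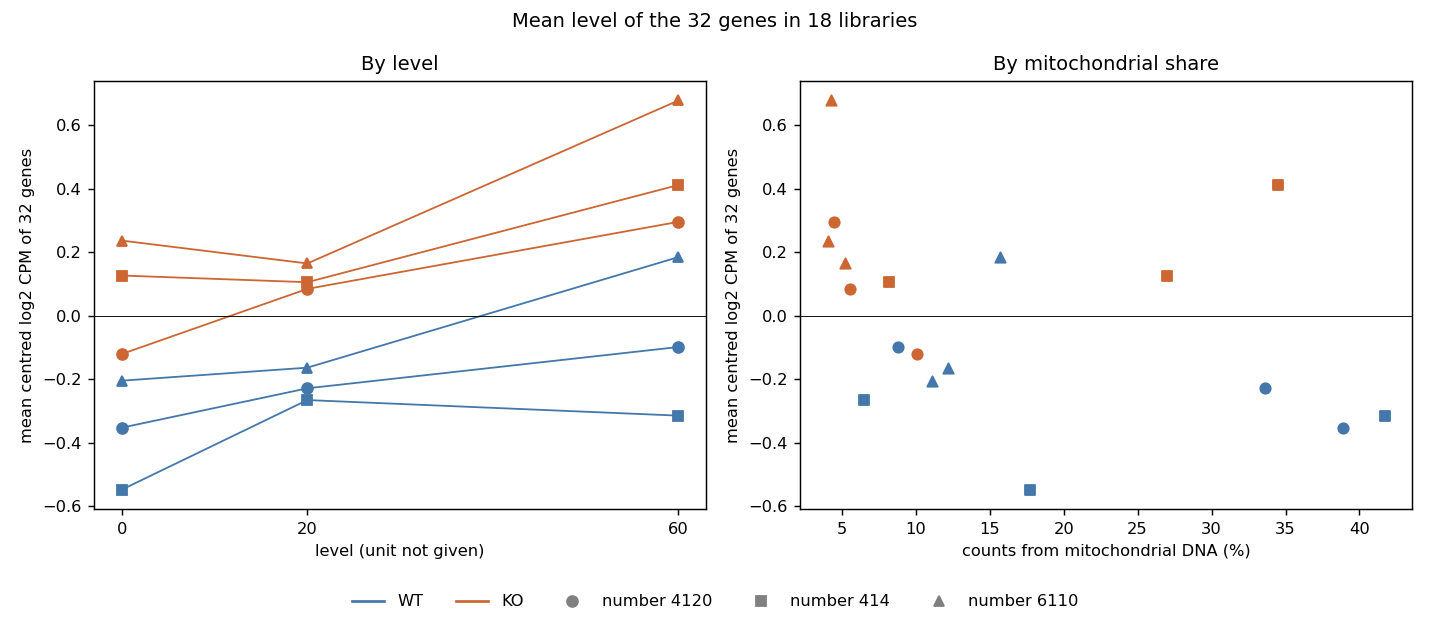
Mean centred log2 CPM of the 32 genes in each of the 18 libraries, by level on the left, with lines joining libraries of one genotype and number, and by the percentage of mitochondrial counts on the right. The KO libraries sit between 0.30 and 0.68 at 60 and the WT libraries between -0.31 and 0.19.

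The spread between numbers was as large as that between genotypes for many of the genes. Over the 3 numbers, the range of log2 levels exceeded the absolute difference between genotypes for 19 of 32 genes, and 20 were highest in number 6110. Neither count was made for all genes, so both describe the list only. A range over 3 numbers is also not the same measure as a difference of means. For Srebf2 the range between numbers was 1.39 and the difference between genotypes 0.61, and for Cyp51 they were 1.00 and 0.83. Stard4 went the other way, with a range of 0.26 and a difference of 0.89, as did Abcg1 with 0.08 and 0.60 and Hsd17b7 with 0.27 and 1.65. The genes tended to vary together: over the 18 libraries, which share groups and depth, a gene's correlation with the mean of the others had a median of 0.67, was positive for 26 of 32 and was highest for Stard4 at 0.90. With group means removed, the median was 0.46, 25 were positive, Stard4 stood at 0.58 and Cyp51 was highest at 0.91. These correlations were not computed for genes outside the list, so they do not show that the list varies together more than other genes. Ggps1 stood apart at -0.83, and -0.82 within groups. Its correlation with the log2 mitochondrial share was 0.69, and 0.66 within groups, where the median over the list was -0.35, and -0.12 within groups.

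Other genes of lipid supply were counted for comparison, from a list of 19 that holds elongases, desaturases, the SREBP proteases Mbtps1 and Mbtps2, the oxysterol receptors Nr1h2 and Nr1h3 and their targets. Of these 18 were tested, Ch25h having too few counts, and edgeR called none in any of the comparisons. In KO against WT, 14 of the 18 were positive at 0, 12 at 20 and 14 at 60, with medians of 0.33, 0.17 and 0.18. In KO at 60 against 0, 10 of 18 were positive with a median of 0.06, beside 23 of 32 and 0.19 for the synthesis genes.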

How the data were processed

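The 18 BMMC libraries were made as mRNA-seq from total RNA with a TruSeq kit, per the labels' protocols. The authors deposited 1 table per gene of read counts, FPKM and TPM, per the file headers. The submitters' processing notes list bcl2fastq 2.20.0, FastQC 0.11.7, HISAT2 2.1.0, StringTie 2.1.3b and build mm10. Strand use is not given in the sources used here. The deposited FPKM values were not used, and the deposited TPM values served for levels between genes and as an alternative. All columns mapped to a sample (0 did not).

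The deposited counts were tested with edgeR 4.0.16 in R 4.3.3: filterByExpr, TMM factors, 1 mean per group over 18 libraries, quasi-likelihood F test, Benjamini-Hochberg over all 17159 genes, calls at an adjusted p under 0.05. Over all levels, counts were summed per genotype and number (18280 genes tested). Printed CPM use TMM-scaled library sizes, and standard errors come from the log2 fold change and its F value. The fit was also run on simulated counts drawn independently for each library, which does not check it for libraries that share a number. Between 3 and 3 libraries an exact permutation test cannot go below p = 0.1, so none was used.

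A gene was named in a comparison if called, or if among the 3 largest absolute log2 fold changes with at least 5 CPM in a compared group. Library values are given for those called, or named in at least 2 comparisons. The 32 genes and all lists were chosen with earlier results of these data known. The main tests fitted no pairing. For reading the replicate block, an alternative, same-numbered libraries were taken as paired where the residual correlation of every pair was over 0.1. This held in KO against WT at 60 (0.445 to 0.53) and over all levels (0.172 to 0.535), and in KO 60 against 0 (0.354 to 0.675). It also held in KO 20 against 0 (0.392 to 0.595) and WT 20 against 0 (0.628 to 0.768). The pairing comes from these correlations and not from the labels. Alternatives were DESeq2 1.42.0, limma 3.58.1 (voom, and log2(TPM + 1) or log2(TPM + 0.1)), other scaling and filters, a mitochondrial covariate, a replicate block, and leaving out libraries. Promoters were matched by symbol, and gene positions by gene identifier on a RefSeq annotation of GRCm38.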

Additional observations from a re-analysis of the deposited data

How the results depend on the processing

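The number of the 32 genes called moved with the fit, as did the share of all genes called. In KO 60 against 0 (4 called, 2.54% of all genes), limma-voom with a random effect called 10 (10.8%). When only the compared groups were fitted 2 were called (1.58%), and on library size alone 1 (0.95%). On log2(TPM + 1) and on log2(TPM + 0.1) the count was 0 (0.507% and 0.46%). Leaving out 1 library gave 1 to 3 (0.971% to 2.01% of all genes). In the settings added after seeing the data, 0 were called without the 5 libraries over 20% mitochondrial counts (0.605% of all genes). The count was 0 without number 4120 or 414 at every level (0.118% and 0.534%) and 1 without 6110 at every level (0.874%). It was 9 with a replicate block by genotype and number (10.7% of all genes). In WT 60 against 0 (0 called), DESeq2 and a mean CPM of at least 1 each gave 1 (1.31% and 0.477% of all genes). There limma-voom gave 4 (2.59%) and the added block by genotype and number 5 (2.79%). Leaving out 1 library gave 0 to 1 in WT 60 against 0. The 1 was Msmo1, without library 414 of WT 60 (0.412% of all genes) or without library 6110 of WT 0 (0.19%). In KO against WT (0 called), DESeq2 gave 3 at 0, 1 at 20, 2 at 60 and 3 over all levels (1.46%, 0.694%, 1.31% and 2.85% of all genes). A mean CPM of at least 1 gave 1 at 0 (0.341%). Leaving out 1 library gave 0 to 1 at 60 (0.168% to 0.285%) and 0 at the other levels. Over all levels, the mean of the level contrasts over 18 libraries called 8 (10.9% of all genes) and limma-voom 2 (0.752%). The differences in response and both comparisons of 20 with 0 had 0 calls in every setting run.

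With the replicate block, 3 of the 32 genes were called in KO against WT at 0 (Abcg1, Hsd17b7 and Stard4) and 3 at 60. The block called 3 in WT 60 against 0 (Cyp51, Hmgcs1 and Msmo1) and 6 in KO 60 against 0. Of all genes it called 1.21%, 1.07%, 1.2% and 6.38% there, beside 0.274%, 0.268%, 0.221% and 2.54% in the main fit. It changed no other call count of the 32. In KO against WT at 0 the residual correlations of same-numbered libraries ran from -0.009 to 0.431, and at 20 from 0.022 to 0.38. In WT 60 against 0 they ran from 0.048 to 0.73. The lowest value in each of these comparisons fell under the limit set for pairing, so the libraries were not read as paired. That does not show that they were unpaired. In WT 20 against 0 the same-numbered libraries ran from 0.628 to 0.768. Whether the fit with or without the block is the better one for WT 60 against 0 was not settled.

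The list's median turned in some settings. In KO 60 against 0 it was -0.05 on library size alone, -0.07 on log2(TPM + 1) and -0.09 on log2(TPM + 0.1), with 14 of 32 positive each time. The difference in response at 60 (0.11) had medians of -0.06, -0.08 and -0.11 there, with 13, 10 and 8 positive, and -0.02 without library 4120 of KO 0. Medians near 0 in the comparisons at 20 also crossed it. Among single genes, the difference in response at 20 for Pmvk was -0.15 without the 5 libraries over 20%, that for Fdps was 0.033 without the 5 libraries and ran from -0.673 to 0.078 with 1 library left out, the positive value being without library 414 of KO 0, and Scd1 in KO 20 against 0 was 0.001 without number 414 at every level. The cause was not tested. In KO against WT, 26 to 30 of the 32 differences were positive over the settings at 0, 24 to 31 at 20 and 26 to 31 at 60. On library size alone the median of all genes in KO against WT was 0.16 at 0, 0.14 at 20 and 0.04 at 60. Counts were fewest for Abca1 and Hsd17b7, with 8 to 81 and 6 to 123 a library, which limits their precision.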
